A study of Mus musculus with 4 samples.

Results

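Intestinal identity transcription factors are the DNA-binding proteins that keep gut epithelium intestinal and carry its cells from the dividing crypt to the mature surface. The 7 genes described here are Cdx1, Cdx2, Hnf4a, Hnf4g, Gata6, Klf4 and Klf5, chosen by symbol, and all 7 were found among the 14979 genes of the count table. They were measured by CAGE, which captures capped RNA, sequences a short tag from its 5′ end and counts the tags per gene. Colon tumours came from 4 mice of the AOM/DSS model. In it, the carcinogen azoxymethane and the colitis-inducing agent dextran sulfate sodium together give tumours in an inflamed colon. Both groups therefore carried the carcinogen and the colitis, and they differed in the antibody given. The IgG group (libraries IgG 1 and IgG 2) received a control antibody, and the MAdCAM1 group (MAdCAM1 1 and MAdCAM1 2) received one against MAdCAM-1, the adhesion molecule of gut venules that captures circulating lymphocytes. The design text gives 2 mice for each group. The strain, sex and age of the mice, and the dose and time of the antibodies, are not given in the sources used here.

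CDX1 and CDX2 are the caudal-type homeobox proteins that set the intestinal fate of the endoderm, and in the adult gut they hold the intestinal programme in place. HNF4A and HNF4G are paralogous nuclear receptors that act downstream of that choice, on genes of the brush border and of lipid handling in absorptive cells. GATA6 is a zinc finger protein of the crypt and the villus or surface epithelium. KLF4 and KLF5 share a type of DNA-binding domain but are placed at opposite ends of the crypt, KLF5 in dividing cells and KLF4 in cells that have left the cycle, including goblet cells.

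Levels are in CPM, the usual depth-scaled unit, with library sizes adjusted by TMM factors. A positive log2 fold change means a higher level in the MAdCAM1 group. A capped RNA gives its tag at its 5′ end whatever its length, so the CPM of different genes are compared without division by length. Libraries held 14850923 to 16891234 tags, and 1 tag was worth 0.0569 to 0.0700 CPM. The members had between 60 and 13243 tags in a library, and all 7 passed the filter on low counts with 14331 genes in all. No member shared its counts with another gene.

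CAGE tags start where transcription starts, so the sequences just before those starts are shown for 5 of the members. Each is the 200 bases before an annotated start in GENCODE M39 (build GRCm39), read 5′ to 3′ on the strand of the gene. Hnf4a and Hnf4g are each shown at 2 starts, the outermost one and that of the canonical transcript. The table counts tags per gene, so that tags from these starts cannot be told apart. Capitals mark matches on either strand to 4 short motifs, and a run of 13 bases described after the sequences. The motif for KLF proteins was CCNCNCCC. That for CDX proteins was TTTAT. The core searched for the GATA family was GATAA. HNF4 sites were searched by the core CAAAG.
Cdx2 (chr5:147244092-147244291, minus strand): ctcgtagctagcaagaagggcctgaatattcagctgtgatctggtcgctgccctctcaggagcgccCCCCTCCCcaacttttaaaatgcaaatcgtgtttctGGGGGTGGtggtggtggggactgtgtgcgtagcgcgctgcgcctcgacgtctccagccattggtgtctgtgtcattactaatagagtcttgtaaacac
Hnf4a, outermost start (chr2:163348528-163348727, plus strand): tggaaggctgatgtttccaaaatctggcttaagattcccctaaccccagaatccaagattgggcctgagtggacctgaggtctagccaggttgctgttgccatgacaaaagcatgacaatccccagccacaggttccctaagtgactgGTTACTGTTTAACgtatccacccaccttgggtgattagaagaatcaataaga
Hnf4a, canonical start (chr2:163388869-163389068, plus strand): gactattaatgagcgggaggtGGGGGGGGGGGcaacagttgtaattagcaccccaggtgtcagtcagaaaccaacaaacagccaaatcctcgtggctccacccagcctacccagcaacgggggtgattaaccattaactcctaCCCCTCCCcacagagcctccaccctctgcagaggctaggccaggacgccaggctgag
Hnf4g, outermost start (chr3:3572884-3573083, plus strand): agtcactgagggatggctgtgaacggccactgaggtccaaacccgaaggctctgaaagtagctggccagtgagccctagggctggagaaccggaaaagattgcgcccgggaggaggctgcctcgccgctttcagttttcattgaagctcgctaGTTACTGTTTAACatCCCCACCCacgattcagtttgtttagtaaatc
Hnf4g, canonical start (chr3:3699005-3699204, plus strand): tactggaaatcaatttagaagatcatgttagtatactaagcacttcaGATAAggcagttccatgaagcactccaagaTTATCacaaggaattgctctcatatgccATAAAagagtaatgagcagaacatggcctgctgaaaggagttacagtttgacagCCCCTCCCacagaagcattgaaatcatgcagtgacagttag
Klf4 (chr4:55532529-55532728, minus strand): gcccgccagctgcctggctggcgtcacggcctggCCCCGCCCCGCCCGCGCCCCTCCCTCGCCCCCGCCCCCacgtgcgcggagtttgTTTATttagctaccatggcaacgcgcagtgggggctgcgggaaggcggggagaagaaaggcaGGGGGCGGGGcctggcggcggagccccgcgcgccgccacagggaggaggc
Klf5 (chr14:99535886-99536085, plus strand): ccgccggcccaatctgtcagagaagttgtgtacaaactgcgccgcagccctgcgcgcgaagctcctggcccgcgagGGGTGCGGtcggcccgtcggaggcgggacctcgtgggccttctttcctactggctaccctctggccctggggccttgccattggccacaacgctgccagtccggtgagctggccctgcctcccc

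The longest run of bases shared by any pair of these windows joined the paralogues Hnf4a and Hnf4g. Both held GTTACTGTTTAAC at their outermost start, from base −52 to −40 in Hnf4a and from base −47 to −35 in Hnf4g. This run stood in 3 of 21756 windows of the same length before protein-coding genes (0.0138%), these 2 included, and it was chosen after the windows were read. The canonical start of Hnf4a held 5 matches to CCNCNCCC, 4 of which lie in a run of G. Klf4 held 9 matches to CCNCNCCC, several of them overlapping, and 1 to TTTAT. Klf5 held 1 match to CCNCNCCC, a motif that 40.9% of windows hold. The canonical Hnf4g window held 2 matches to GATAA and 1 to TTTAT. The Cdx2 window held 2 matches to CCNCNCCC, and the outermost Hnf4a window had no match to any of the 4 motifs. TTTAT stood in 32.8% of windows, GATAA in 19.0% and CAAAG in 42.9%. The windows of Klf4 and Klf5 were rich in G and C (76.5% and 69.5%), against a median of 52% over all windows, 54.5% for Cdx2 and 47.5% for the outermost start of Hnf4a.

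Compared between the antibodies, the question is whether the tumours of anti-MAdCAM-1 mice carried other levels of these factors than those of IgG mice. Cdx1, Cdx2, Hnf4a, Hnf4g and Klf4 each lay above both IgG values in both MAdCAM1 libraries, by 1.72 to 2.85-fold in the fit. Gata6 and Klf5 overlapped between the groups. A separation of this kind with the MAdCAM1 libraries above was found for 19.7% of the 14331 tested genes, and one with the MAdCAM1 libraries below for 18.7%, a side that held 0 of the 7 factors. None of the 7 passed the quasi-likelihood test of edgeR with p-values adjusted over all tested genes by the Benjamini-Hochberg method (0% called), where 0 genes of the table passed and the smallest adjusted p was 0.484. At an unadjusted p under 0.05 that test held 4 of the 7 factors as higher (Cdx1, Cdx2, Hnf4a and Hnf4g), against 5.09% of all genes, and 0 as lower, against 1.82%. edgeR's exact test, DESeq2 and limma-voom called 0 of the 7, against 1.12%, 1.67% and 0% of all genes. The quasi-likelihood p-values rest on the spread between 2 mice a group together with spread borrowed from other genes.

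**Figure D1:**
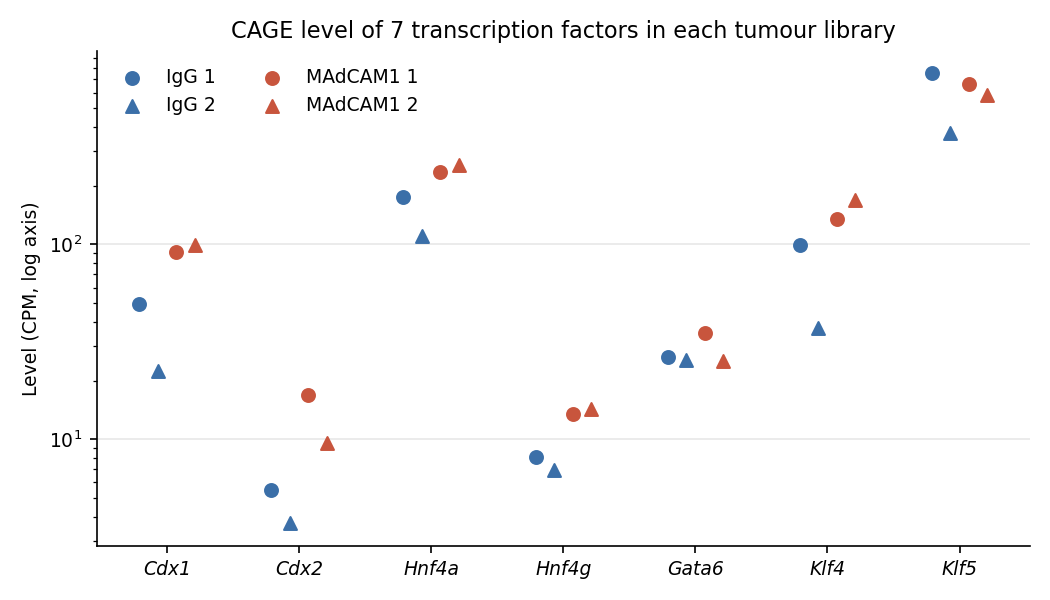
CPM of each factor (log axis) in the 4 libraries, IgG in blue and MAdCAM1 in red, with 1 point per library. In Cdx1, Cdx2, Hnf4a, Hnf4g and Klf4 both red points lie above both blue ones, whereas in Gata6 and Klf5 the colours overlap.

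Cdx1 (Ensembl ENSMUSG00000024619, chromosome 18, 61151934 to 61169314, 3 exons in the canonical transcript) stood at 49.2 CPM in IgG 1, 22.4 in IgG 2, 91.6 in MAdCAM1 1 and 99.6 in MAdCAM1 2. The MAdCAM1 libraries lay close together above a spread pair of IgG libraries. The log2 fold change was 1.42 (SE 0.41, n = 2 per group; edgeR adjusted p = 0.691), with a 95% interval of 0.29 to 2.54.

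Cdx2 (ENSMUSG00000029646, chromosome 5, 147237615 to 147244091, 3 exons) was the least abundant factor and had the highest fold change of the 7. It had 97 and 60 tags in IgG 1 and IgG 2 and 241 and 147 tags in MAdCAM1 1 and MAdCAM1 2, or 5.52, 3.71, 16.9 and 9.52 CPM. Here the MAdCAM1 libraries differed from each other, with MAdCAM1 1 the highest. The log2 fold change was 1.51 (SE 0.42; edgeR adjusted p = 0.691), with a 95% interval of 0.38 to 2.65.

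The 2 caudal genes differed far more from each other in level than between the groups. Per library, Cdx1 had 8.91, 6.05, 5.43 and 10.5 tags for each Cdx2 tag in the order IgG 1, IgG 2, MAdCAM1 1, MAdCAM1 2. The groups overlapped in this ratio, whose geometric mean was 7.34 in IgG and 7.54 in MAdCAM1. As a ratio within a library it does not depend on the scaling.

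Hnf4a (ENSMUSG00000017950, chromosome 2, 163348728 to 163414830, 10 exons) was abundant, at 175 and 110 CPM in IgG 1 and IgG 2 against 236 and 254 CPM in MAdCAM1 1 and MAdCAM1 2. Both MAdCAM1 values exceeded the IgG values, and IgG 2 was the lowest library. The log2 fold change was 0.78 (SE 0.27; edgeR adjusted p = 0.710), with a 95% interval of 0.06 to 1.51.

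Hnf4g (ENSMUSG00000017688, chromosome 3, 3573084 to 3724860, 10 exons) had levels of 8.14 and 6.99 CPM with control IgG, against 13.4 and 14.2 CPM with anti-MAdCAM-1. These were the tightest pairs among the 5 factors that separated, and its SE of 0.23 was the smallest of those 5. Its log2 fold change of 0.87 had an edgeR adjusted p of 0.691 and a 95% interval of 0.25 to 1.49. Hnf4a had 21.5, 15.7, 17.5 and 17.8 tags for each Hnf4g tag in the library order above. The geometric mean of that ratio was 18.4 in IgG and 17.7 in MAdCAM1, and both MAdCAM1 values lay between the IgG values. The centred log2 values of Hnf4a and Hnf4g lay 0.33 apart over the 4 libraries, the second smallest distance of the 21 pairs of factors after Cdx1 and Klf4 at 0.32.

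Gata6 (ENSMUSG00000005836, chromosome 18, 11051565 to 11086995, 7 exons) had levels of 26.4 and 25.4 CPM with control IgG, against 34.9 and 25.2 CPM with anti-MAdCAM-1. The lowest and the highest value both came from the MAdCAM1 group. The log2 fold change was 0.22 (SE 0.22; edgeR adjusted p = 0.879), with a 95% interval of −0.37 to 0.81 that holds changes in either direction. Without MAdCAM1 1 it was −0.036. Gata6 overlaps the antisense gene Gata6os, and whether the authors counted by strand is not given in the sources used here. Gata6os had 38, 36, 74 and 73 tags against 464, 410, 499 and 390 for Gata6.

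Klf4 (ENSMUSG00000003032, chromosome 4, 55527139 to 55532528, 5 exons) had 98.8 CPM in IgG 1, 37.4 in IgG 2, 135 in MAdCAM1 1 and 169 in MAdCAM1 2. The groups did not overlap, although IgG 1 lay nearer to MAdCAM1 1 than to IgG 2. The log2 fold change was 1.16 (SE 0.51; edgeR adjusted p = 0.757), with a 95% interval of −0.24 to 2.55. It was 2.01 without IgG 1 and 0.62 without IgG 2.

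Klf5 (ENSMUSG00000005148, chromosome 14, 99536086 to 99552473, 4 exons) was the most abundant of the 7, above 98.4% of tested genes. It stood at 754 and 373 CPM in IgG 1 and IgG 2 and at 665 and 585 CPM in MAdCAM1 1 and MAdCAM1 2, so that the MAdCAM1 values lay between the IgG values. The log2 fold change was 0.15 (SE 0.38; edgeR adjusted p = 0.961), with a 95% interval of −0.88 to 1.18. It was −0.27 without IgG 2 and 0.73 without IgG 1.

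Although Klf4 and Klf5 were both higher in IgG 1 than in IgG 2, their ratio did not overlap between the groups, unlike those of the CDX and HNF4 pairs. Klf5 had 7.62 and 9.98 tags for each Klf4 tag in the IgG libraries and 4.93 and 3.47 in the MAdCAM1 libraries. The geometric means were 8.72 and 4.14, a log2 difference of −1.08 that does not depend on the scaling. This difference restates the log2 fold changes of Klf4 (1.16) and Klf5 (0.15). How often the ratios of other gene pairs separate the groups was not counted, and the ratio is described without a test.

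In the order of their levels, Klf5 led in all 4 libraries, followed by Hnf4a and Klf4. Klf5 did not overlap with Hnf4a over the 4 libraries (373 to 754 against 110 to 254 CPM). The ranges of Hnf4a and Klf4 overlapped, as did those of Klf4 and Cdx1 and those of Cdx1 and Gata6, and in IgG 2 Gata6 (25.4 CPM) lay above Cdx1 (22.4 CPM). Hnf4g and Cdx2 lay below the other 5 in every library and overlapped with each other, with Cdx2 above Hnf4g in MAdCAM1 1 and below it in the other 3.

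These are bulk tumours, in which fewer cells of a type and less RNA per cell cannot be told apart. Of 14 genes of general epithelium, 11 were also higher in both MAdCAM1 libraries (19.7% of all genes), 1 was lower in both (18.7%) and 2 overlapped. The lower one was Cldn4, a claudin of tight junctions named after its values were seen, with 536 and 569 against 449 and 285 CPM. The summed level of that list of 14 genes (Epcam, Cdh1, keratins, claudins and others, all of them measured) was 8750 and 7636 CPM in IgG 1 and IgG 2 and 13721 and 11838 CPM in MAdCAM1 1 and MAdCAM1 2. Against this sum, Cdx1, Cdx2 and Hnf4g remained higher in both MAdCAM1 libraries, as 3.36% of all genes did, and Gata6 was lower in both, as 71.8% of all genes were. The same 3 and the same 1 were found against Epcam alone (3.3% and 69% of all genes). Hnf4a, Klf4 and Klf5 overlapped on both scales. Against Epcam, Hnf4g was higher by a very narrow margin, with log2 differences of −7.879 in IgG 1 and −7.875 in MAdCAM1 1. Reported CDX2 targets (Vil1, Lgals4 and Cdh17) are among the 14 epithelial genes.

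On the log2 scale, Cdx1 lay below the mean of the 14 epithelial genes by the following amounts. The differences were −3.12 and −3.92 in IgG 1 and IgG 2 and −2.81 and −2.45 in MAdCAM1 1 and MAdCAM1 2, a group difference of 0.89. Those of Cdx2 were −6.25, −6.48, −5.25 and −5.82, a group difference of 0.83. Both caudal genes were thus higher in the MAdCAM1 libraries against the epithelial genes as well as on the CPM scale. For Hnf4a the values overlapped at −1.29, −1.64, −1.45 and −1.10 (group difference 0.19). Hnf4g differed by 0.24 and Klf4 by 0.68, with overlap in Klf4. The groups of Hnf4g were apart by a narrow margin (−5.59 in IgG 2 against −5.57 in MAdCAM1 1). Gata6 (−0.43) and Klf5 (−0.40) were lower in both MAdCAM1 libraries on this scale, for which the share of all genes was not computed. Against the epithelial sum, 71.8% of all genes were lower in both. Klf5 was lower by a narrow margin (0.13 in IgG 2 against 0.11 in MAdCAM1 2), and it overlapped against the sum and against Epcam. When the libraries were scaled to the epithelial sum, which put the median over all genes at −0.64 (log2), the fitted log2 fold changes were 0.82 for Cdx1, 0.86 for Cdx2, 0.17 for Hnf4a, 0.24 for Hnf4g, −0.44 for Gata6, 0.57 for Klf4 and −0.46 for Klf5. No gene of the table passed edgeR's quasi-likelihood test on this scale (smallest adjusted p = 0.0934).

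**Figure D2:**
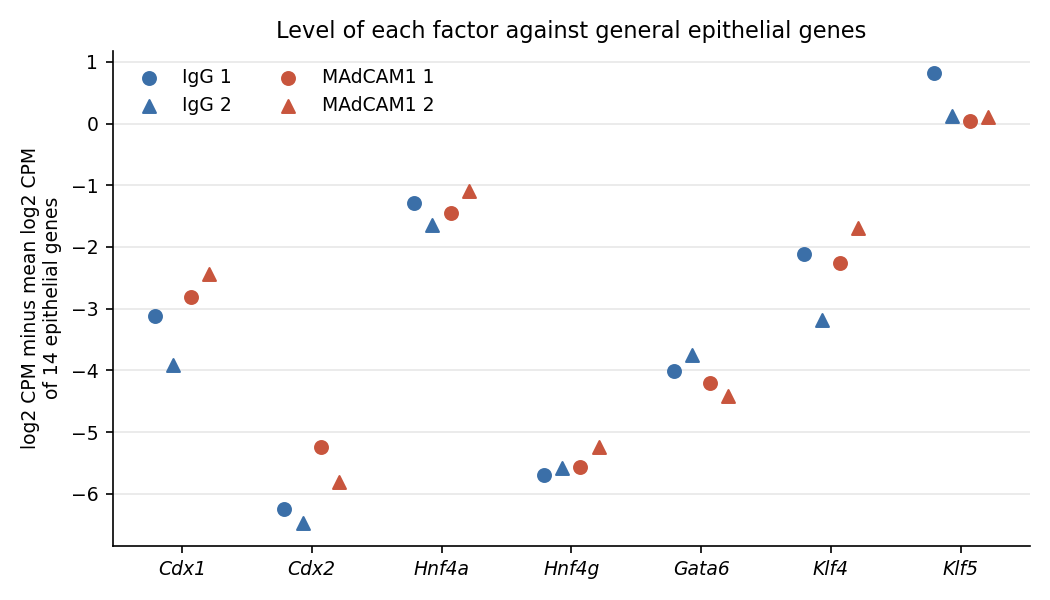
log2 CPM of each factor minus the mean log2 CPM of 14 general epithelial genes, with 1 point per library (IgG blue, MAdCAM1 red). The red points of Cdx1 and Cdx2 stay above the blue ones, those of Hnf4a and Klf4 overlap with them, and those of Gata6 lie below.

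Leaving out 1 library at a time, and keeping TMM scaling, the log2 fold changes ran from 0.96 to 2.08 for Cdx1, 1.04 to 1.87 for Cdx2, 0.48 to 1.15 for Hnf4a and 0.76 to 0.97 for Hnf4g. The lowest value of Cdx1, Hnf4a, Hnf4g, Klf4 and Klf5 came without IgG 2, the library in which each of these genes was lowest. The lowest value of Cdx2 and Gata6 came without MAdCAM1 1, where both were highest. Hnf4g moved least among the 7.

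**Figure D3:**
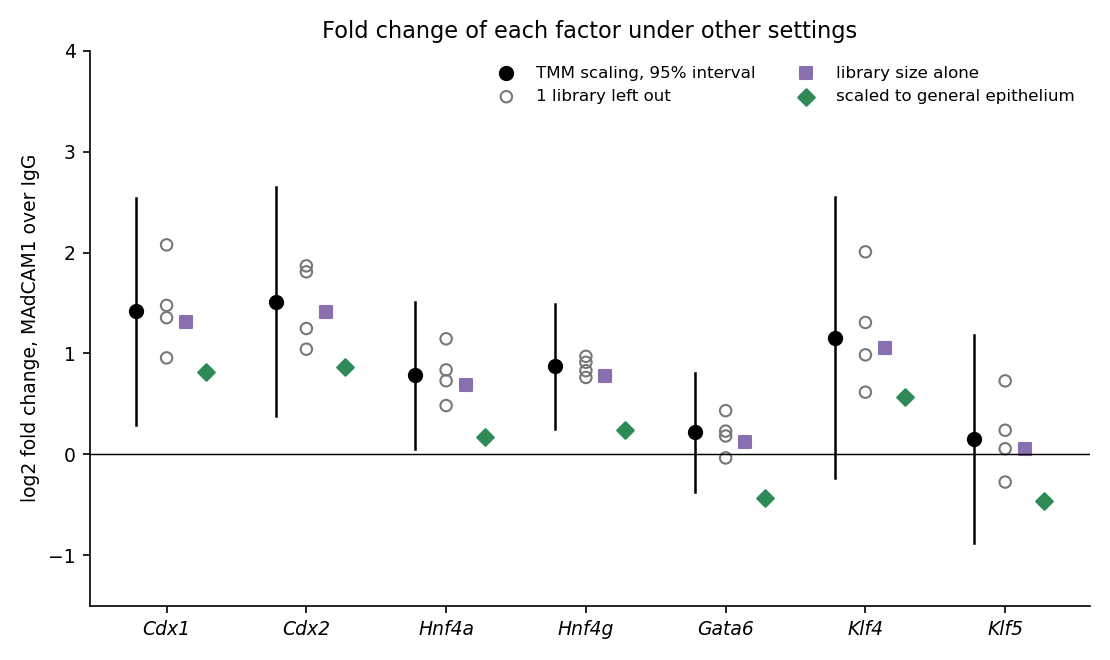
log2 fold change of each factor (MAdCAM1 over IgG) with its 95% interval under TMM scaling, with 1 library left out at a time, with library size alone and when scaled to general epithelium. The estimates for Cdx1, Cdx2, Hnf4a, Hnf4g and Klf4 stay above 0 in every setting shown. Those for Gata6 and Klf5 lie on both sides of it. The 95% intervals of Klf4, Gata6 and Klf5 include 0.

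The summed levels of non-epithelial cell types overlapped between the groups. Of 10 measured smooth muscle genes, 10 were higher in IgG 1 and MAdCAM1 2 than in the other libraries, with sums of 2247 (IgG 1), 177 (IgG 2), 172 (MAdCAM1 1) and 2439 CPM (MAdCAM1 2). Leukocyte genes (12 of 14 measured, among them Ptprc, Cd3g and Csf1r) summed to 381 to 690 CPM in IgG and 293 to 1446 CPM in MAdCAM1. Of the 12, 2 were higher in both MAdCAM1 libraries (19.7% of all genes). These were the plasma cell genes Mzb1 (5 and 7 against 19 and 135 tags) and Jchain (143 and 573 against 610 and 6944 tags). Both were far higher in MAdCAM1 2 than in MAdCAM1 1. Cd79a of the same list overlapped (154 and 36 against 16 and 931 tags). Fibroblast genes (10 of 10) summed to 559 to 1276 against 514 to 1780 CPM, and endothelial genes (8 of 10) to 67.7 to 98.9 against 34.3 to 149 CPM. Genes of squamous epithelium summed to 85.1 to 626 against 193 to 447 CPM over 4 of 14 genes, and Krt5, Krt14 and Trp63 were not analysed here. IgG 1 was higher than IgG 2 in smooth muscle and squamous genes and also in all 7 factors. The part of these cells in the results was not tested.

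**Figure D4:**
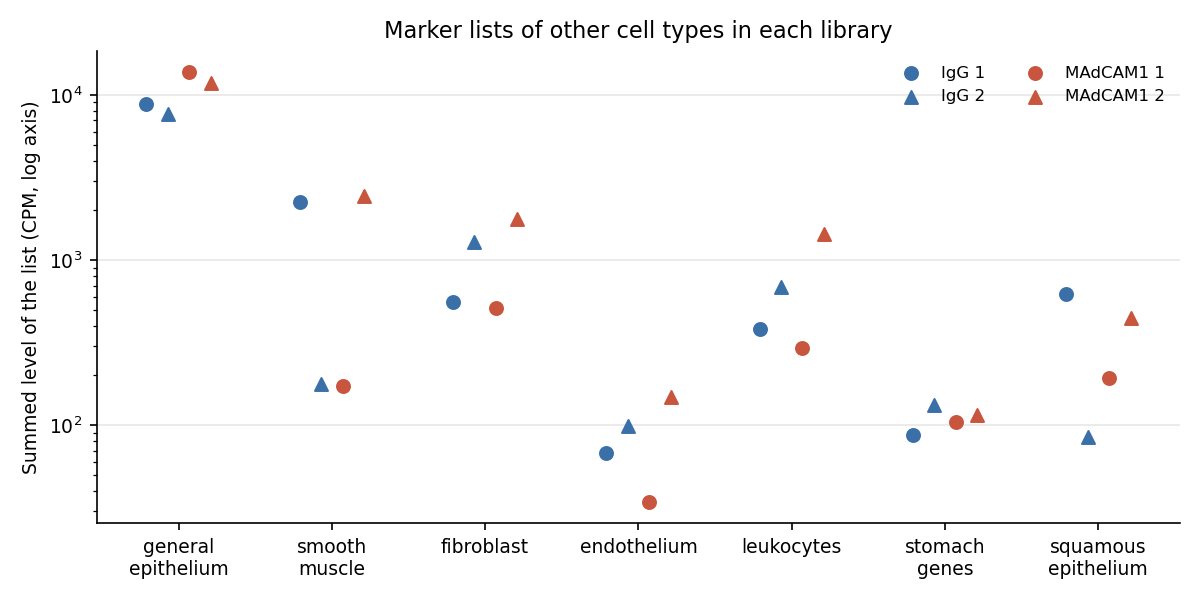
Summed CPM (log axis) of marker lists of several cell types in the 4 libraries, IgG in blue and MAdCAM1 in red. General epithelium is the list whose red points both lie above the blue ones, and smooth muscle is high in IgG 1 and MAdCAM1 2.

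Other transcription factors of intestinal epithelium were mixed. Of 25 listed genes, 23 were tested, 10 were higher in both MAdCAM1 libraries (19.7% of all genes), 2 were lower in both (18.7%). The lower ones were Gata5 and Tcf4 (log2 fold change −0.59). Tcf4 is a different gene from Tcf7l2, which is also listed and was higher in both (0.65). The log2 fold changes of the 23 had a median of 0.05, against 0.87 for the 7 factors and −0.0012 for all tested genes. As a difference of mean log2 levels the median of these genes was 0.02, and 0.16 to 0.41 with 1 library left out. Scaled to general epithelium it was −0.62, with 5 of 23 positive, close to the median of all genes on that scale (−0.65). edgeR's quasi-likelihood test called 0 of the 23, with 3 higher at an unadjusted p under 0.05 (5.09% of all genes). The exact test called 2, Nr1h4 and Nr5a2 (1.12% of all genes), and DESeq2 called 1, Nr1h4 (1.67%).

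The nuclear receptors and surface regulators stood out on the higher side. Nr1h4, the bile acid receptor FXR, stood at 4.55 and 1.67 CPM with control IgG, against 14.9 and 19.4 CPM with anti-MAdCAM-1 (log2 fold change 2.46, SE 0.56; edgeR adjusted p = 0.670). Nr5a2, a receptor of crypt cells known as LRH-1, had 6 and 1 tags against 38 and 43. Both genes were low in the IgG tumours and several times higher in both MAdCAM1 tumours. Isx, an intestine-specific homeobox gene, had 15 and 11 tags against 30 and 44. Vdr, the vitamin D receptor, stood at 22.6 and 5.75 against 35.8 and 42.6 CPM. Vdr shared with Cdx1 and Klf4 the low value in IgG 2.

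Foxa1, Foxa2, Foxa3, Grhl2, Ehf and Sox9 overlapped between the groups. Sox9, a factor of crypt base cells, stood at 162, 157, 162 and 81.3 CPM. The GATA genes differed in direction. Gata5 was lower in both MAdCAM1 libraries, at 17.6 and 25.4 against 16.5 and 11.6 CPM (log2 fold change −0.62, SE 0.30; edgeR adjusted p = 0.760), and Gata2 and Gata3, which are known from blood cells, overlapped. Gata4, the GATA factor of the upper intestine, was not analysed here.

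Of the KLF family other than Klf4 and Klf5, 10 genes were tested, with a median log2 fold change of −0.04. Of these, 1 was higher in both MAdCAM1 libraries (19.7% of all genes), Klf6 at 151 and 92.7 against 183 and 172 CPM. Lower in both were 2 of the 10, Klf11 and Klf12, which is near the share of all genes (18.7%). Klf12 stood at 13.8 and 15.7 against 11.3 and 6.93 CPM (log2 fold change −0.70, SE 0.32; edgeR adjusted p = 0.759). Klf3, named after its values were seen like Klf11 and the second most abundant family member after Klf5 in every library, overlapped at 289, 223, 270 and 267 CPM. edgeR's quasi-likelihood test called 0 of the 10 genes, with 0 at an unadjusted p under 0.05 (5.09% of all genes higher, 1.82% lower). The exact test (1.12%) and DESeq2 (1.67%) called 0.

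Most measured genes reported as CDX2 targets in intestine separated the groups in the direction of Cdx1 and Cdx2, and none passed the quasi-likelihood test. Of 16 listed genes other than the factors themselves, 12 were tested, 10 were higher in both MAdCAM1 libraries (19.7% of all genes), 0 were lower in both. The median of their log2 fold changes was 1.49. As a difference of mean log2 levels it was 1.55, with 12 of 12 positive, and 0.91, with 10 of 12 positive, when scaled to general epithelium. Vil1, the villin of microvilli, stood at 113 and 99.9 CPM with control IgG, against 182 and 168 CPM with anti-MAdCAM-1 (log2 fold change 0.71, SE 0.15; edgeR adjusted p = 0.665). Lgals4, a galectin of intestinal epithelium, stood at 454 and 247 against 972 and 964 CPM (log2 fold change 1.47). Gucy2c, the guanylin receptor, named after its values were seen, stood at 44.9 and 20.1 against 89.6 and 89.5 CPM. Cdh17, the liver-intestine cadherin, also named after its values were seen, overlapped at 224, 176, 265 and 223 CPM. Vil1, Lgals4 and Cdh17 also belong to the list of general epithelium, of whose 14 genes 11 were higher in both MAdCAM1 libraries. edgeR's quasi-likelihood test called 0 of the 12, with 8 higher at an unadjusted p under 0.05 (5.09% of all genes), the exact test 3 (1.12%) and DESeq2 5 (1.67%). Many of these genes are also markers of mature colonocytes or goblet cells. The list was chosen with earlier results of these data known, and a link to Cdx1 or Cdx2 was not tested.

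Genes reported as HNF4 targets divided into genes that were higher in both MAdCAM1 libraries and genes that overlapped. Of 23 listed genes, 14 were tested, 8 were higher in both (19.7% of all genes), 0 were lower in both. The median of their log2 fold changes was 0.51. As a difference of mean log2 levels it was 0.52, with 10 of 14 positive, and it turned to −0.12, with 6 of 14 positive, when scaled to general epithelium, where the median of all genes was −0.65. Apob, the carrier protein of lipoprotein particles, stood at 1.08 and 2.41 CPM with control IgG, against 18.9 and 20.1 CPM with anti-MAdCAM-1 (log2 fold change 3.48, SE 0.46; edgeR adjusted p = 0.640). Fabp2, the intestinal fatty acid binding protein, had 12 and 17 tags against 150 and 66. The brush border cadherin Cdhr5 stood at 168 and 121 against 370 and 412 CPM. Cpt1a, an enzyme of fatty acid oxidation named after its values were seen, overlapped at 10.9 and 11.3 against 12.0 and 9.52 CPM. edgeR's quasi-likelihood test called 0 of the 14, with 7 higher at an unadjusted p under 0.05 (5.09% of all genes), and the exact test (1.12%) and DESeq2 (1.67%) called 4 each. Apoa1, Apoa4, Mttp and Fabp1 were not analysed here.

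Reported targets of KLF4 and of KLF5, pooled in the same list, showed no common direction. The counts did not take account of whether a factor raises or lowers a target. Of 17 listed genes, 15 were tested, 4 were higher in both MAdCAM1 libraries (19.7% of all genes), 2 were lower in both (18.7%). The median of their log2 fold changes was 0.11, and as a difference of mean log2 levels it was 0.17 with all libraries and −0.04 without IgG 2. Scaled to general epithelium it was −0.47, with 3 of 15 positive. The goblet peptide Tff3 and the mucin Muc2, which stand in the list for KLF4, had log2 fold changes of 2.37 and 2.62. Myc, a growth gene, measured 77.2 and 103 CPM in IgG tumours against 68.5 and 44.9 CPM, which is lower in both. So was Ccnd1, the cell cycle gene for cyclin D1, named after its values were seen, with 110 and 116 against 98.2 and 84.5 CPM. Cdkn1a, the cell cycle inhibitor that KLF4 induces, overlapped at 106, 85.0, 95.1 and 111 CPM (chosen after its values were seen). edgeR's quasi-likelihood test called 0 of the 15, with 3 higher at an unadjusted p under 0.05 (5.09% of all genes), and the exact test (1.12%) and DESeq2 (1.67%) called 2 each.

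**Figure D5:**
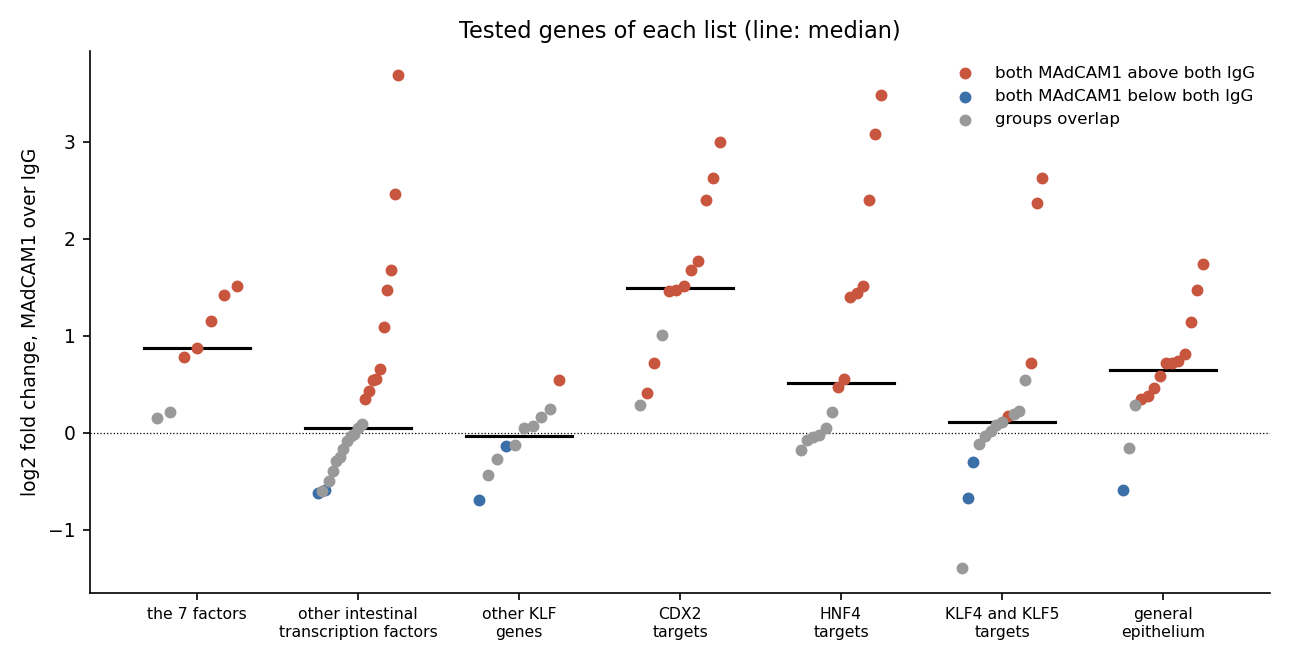
log2 fold change (MAdCAM1 over IgG) of every tested gene in 7 lists, with a line at each median and the colour showing whether the groups overlap. The reported CDX2 targets have the highest median at 1.49, the 7 factors lie at 0.87, and the other KLF genes and other intestinal transcription factors lie near 0.

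Stomach genes were examined because loss of CDX2 is known to let gut epithelium take on gastric features. Of 18 listed genes 5 were in the table. Of these, 1 was higher in both MAdCAM1 libraries (19.7% of all genes) and 2 were lower in both (18.7%). Their summed level overlapped between the groups, at 87.6 and 133 CPM in IgG against 104 and 115 CPM in MAdCAM1. The median log2 fold change was −1.75, the value of Onecut2, whose groups overlapped. As a difference of mean log2 levels that median was −1.37 with all libraries, −2.66 without IgG 1, −0.55 without IgG 2, −2.25 without MAdCAM1 1 and −0.39 without MAdCAM1 2. Muc6, a gastric gland mucin, stood at 6.49 and 38.6 CPM with control IgG, against 5.88 and 3.30 CPM with anti-MAdCAM-1, with IgG 2 far above the rest. Gkn3, a gastrokine, had 15 and 25 tags against 5 and 2. Onecut2, a homeobox factor, was also highest in IgG 2 (3.47, 28.8, 7.63 and 1.94 CPM). IgG 2 was also the library with the lowest Cdx1, Cdx2, Hnf4a, Hnf4g, Klf4 and Klf5. A link between these values was not tested. Ctse, a protease of gastric surface cells, went the other way, at 45.3 and 54.1 against 73.7 and 84.3 CPM (log2 fold change 0.67, SE 0.17; edgeR adjusted p = 0.677). edgeR's quasi-likelihood test called 0 of the 5, with 1 higher (5.09% of all genes) and 1 lower (1.82%) at an unadjusted p under 0.05. The exact test (1.12%) and DESeq2 (1.67%) called 0. Sox2, Tff1, Tff2, Muc5ac, Gkn1, Gkn2 and Cldn18 were not analysed here.

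The genes most like each factor were taken as the 2 with the smallest distance in centred log2 CPM over the 4 libraries, among 9710 named genes of at least 10 CPM on average. For Cdx1 these were Tmc5, a channel-like membrane protein (23.8, 10.7, 44.1 and 46.6 CPM in library order, distance 0.040), and Naip1 (distance 0.064), which has near-identical copies that share reads. For Cdx2 they were Cox7a1 (0.21) and the transporter gene Slc17a4 (0.23), the latter at 10.5, 7.91, 37.6 and 22.5 CPM. Cdx2 had the most distant neighbours of the 7. Hnf4a lay nearest to Oxct1, an enzyme of ketone body use (0.066), and to Nt5e (0.077), and Hnf4g to the glycosyltransferase gene Mgat4b (0.074) and to Plce1 (0.090). Klf4 lay nearest to Pmp22 (0.075) and Rasa4 (0.10), and Klf5 to Marcks (0.052) and the nuclear lamin gene Lmna (0.071). Gata6 lay nearest to Pigm (0.054) and Esco2 (0.055). These distances rest on 4 libraries and describe a likeness of values.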

How the data were processed

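CAGE tags were mapped to GRCm39 with BWA 0.7.17, then HISAT2 2.0.5, and clustered with RECLU, and edgeR 3.22.5 was used for differential expression, per the labels' protocols. The step from clusters to genes is not given in the sources used here. The deposited values are unnormalized tag counts, 1 row for each gene. No column was left out.

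Counts were filtered with filterByExpr (14331 of 14979 genes kept), scaled by TMM and fitted in edgeR 4.0.16 (R 4.3.3) with the robust quasi-likelihood F test of MAdCAM1 against IgG, Benjamini-Hochberg adjustment over all tested genes and a threshold of 0.05. A log2 CPM used a prior count of 2. Alternatives were other scalings and filters, DESeq2 1.42.0, limma-voom 3.58.1, the exact test, a replicate block and leaving out each library. The tests were also run on simulated data, where calls at the 0.05 threshold held more false ones than that level allows. The false calls were fewer with the quasi-likelihood test than with the exact test and DESeq2, so calls of the latter are given only as alternatives. Same-numbered libraries came from different mice, so the main fit has no block.

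The factors and lists were chosen with earlier results of these data known. Named genes are the 7 factors, any tested intestinal transcription factor, up to 4 genes per other list with the smallest p, the 2 nearest genes per factor and others marked as chosen after their values were seen. Lists exclude the 7 factors, and some list genes are not reported here by name. Coordinates and upstream bases came from GENCODE M39 and its GRCm39 genome.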

Additional observations from a re-analysis of the deposited data

How the results depend on the processing

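Cdx1, Cdx2, Hnf4a, Hnf4g and Klf4 kept a positive log2 fold change, and none of the 7 factors had an adjusted p under 0.05, in every alternative run. Scaled to general epithelium, Gata6 (−0.44) and Klf5 (−0.46) changed sign, since that scaling takes the higher epithelial total of the MAdCAM1 libraries as the base. With 1 library left out, Gata6 ran from −0.036 to 0.43, Klf5 from −0.27 to 0.73 and Klf4 from 0.62 to 2.01, where the lone library of a group is assumed to vary like the others. Over all genes DESeq2 called 219 higher and 20 lower and edgeR's exact test 152 and 9, against 0 and 0 in the quasi-likelihood fit. Library size alone put the median of all log2 fold changes at −0.099, and both MAdCAM1 libraries were then above both IgG libraries for 13.6% of genes and below for 28.7%, with the same 5 factors above. With the replicate number as a block 0 genes were called, and the same-numbered deviations correlated at −0.135 over 14331 genes, so the crossed pairing was added after seeing the data and also called 0. With 2 mice per group and 60 to 241 tags for Cdx2, the intervals of all 7 factors are wide.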
